A study of Mus musculus with 2 samples.

Results

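Neurons that transcribe Lhx8 were picked out of 2 single-cell RNA libraries of the corticoseptal boundary, the midline tissue between cortex and septum, of mouse embryos at E16.5. One library was made from embryos of the genotype Tcf4f/f;Emx1Cre (Tcf4 cKO), whose floxed gene encodes the E-protein transcription factor Tcf4, and the other from wildtype embryos (WT). Emx1-driven Cre is known to act in progenitors of the dorsal telencephalon and their descendants, so cells born in the ventral telencephalon lie mostly outside its reach. The labels give neither the floxed exon nor how many embryos were pooled in a library. Cells were barcodes above a fixed minimum of UMIs (unique molecular identifiers, each standing for 1 captured transcript), with 500 or more genes and no more than 10% of UMIs from mitochondrial genes. The Lhx8 neurons were chosen by their own counts, as cells with at least 2 UMIs of Lhx8, at most 1 of Neurod2 (a factor of cortical glutamatergic neurons) and at most 1 of Top2a and Mki67 together (genes of dividing cells). This gave 736 of 10666 cells in the Tcf4 cKO library and 380 of 8964 in the WT library, 1116 of 19630 in all. The shallowest of them had 3379 UMIs in Tcf4 cKO and 3397 in WT.

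Lhx8 is a LIM-homeodomain transcription factor of the ventral forebrain. It is switched on in neurons leaving the medial ganglionic eminence, the preoptic area and the septal anlage, downstream of the homeodomain factor Nkx2-1. Mouse embryos without it lack most cholinergic neurons of the basal forebrain. Its close relative Lhx6 steers other neurons of the same origin towards GABAergic interneurons that migrate to the cortex, while Isl1, a further LIM-homeodomain factor, works with Lhx8 in the cholinergic programme. Mature cholinergic neurons make acetylcholine with Chat, load it into vesicles with Slc18a3 and recover choline with Slc5a7.

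Lhx8 (ENSMUSG00000096225) lies on the minus strand at chr3:154306294-154330659 of mm10. The non-coding transcript AI606473 starts on the other strand at chr3:154330821-154334254, 161 bases from the start of Lhx8, and was close to absent from other neurons. Most of the stretch between the starts, the 151 bases that the promoter window of Lhx8 in the RefSeq table covers (chr3:154330660-154330810 of GRCm38), was read 5′ to 3′ on the strand of Lhx8.

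Lhx8 and AI606473: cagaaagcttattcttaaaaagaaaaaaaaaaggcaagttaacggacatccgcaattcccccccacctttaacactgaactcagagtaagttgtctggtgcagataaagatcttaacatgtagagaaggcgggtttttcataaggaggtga

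No letters are in capitals, because the E-box CANNTG, the motif that E proteins such as Tcf4 bind, was searched and these letters are not in this window (the motif reads alike on both strands). Among 32851 promoter windows of the same 151-base length, 49.48% held at least 1.

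Members had medians of 6899 UMIs and 2766.5 genes in the Tcf4 cKO library and 7982.5 UMIs and 3007 genes in the WT library. Medians over all cells were 8306 UMIs in Tcf4 cKO and 9799.5 in WT. Levels below are in CPM, the usual per-library scaling of the summed UMIs of a gene by the summed UMIs of the cell class. These sums were 5706654 in Tcf4 cKO and 3309194 in WT for the members. Because each genotype has 1 library, no difference between genotypes has a replicate check and no p-value was computed, and the 95% intervals in parentheses cover counting error only. No member barcode was shared between the libraries, which had 23 cell barcodes in common.

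The label's markers held to different degrees. Lhx8 itself, which set the membership, had 643 CPM in Tcf4 cKO and 629 CPM in WT members, with a median of 4 and 5 UMIs per cell and maxima of 19 and 21. Slc10a4, a vesicular transporter of cholinergic and monoaminergic neurons (chr5:73006883-73012955), had a UMI in 33.2% of Tcf4 cKO members and 33.2% of WT members. Pde1a, a calmodulin-dependent phosphodiesterase (chr2:79834453-80129458), was seen in 22.8% of Tcf4 cKO members and 28.2% of WT members. Gbx1, a homeodomain factor (chr5:24502757-24527202), was seen in 15.6% and 16.3%. The shares were also taken in Neurod2 neurons, cells with at least 2 Neurod2 UMIs, at median depths of 8969 UMIs in Tcf4 cKO and 11004 in WT. There they were 2.24% and 1.56% for Slc10a4, 4.56% and 9.62% for Pde1a and 0.855% and 0.125% for Gbx1. Whether those cells make Pde1a was not tested. Each of the 3 was therefore seen in a larger share of members than of Neurod2 neurons, and none was seen in most members. In all other neurons, defined below, Slc10a4 was seen in 13.3% in Tcf4 cKO and 15.4% in WT. There Pde1a was seen in 4.37% and 6.20% and Gbx1 in 1.61% and 0.301%. In Lhx6 interneurons, also defined below, Slc10a4 was seen in 6.60% and 3.33%. Pde1a was seen there in 7.55% and 3.33% and Gbx1 in 11.3% and 3.33%.

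The edge of the rule was graded. Cells with exactly 2 Lhx8 UMIs numbered 136 in Tcf4 cKO and 53 in WT, and cells left just outside with 1 UMI numbered 213 and 106. Just inside, Nkx2-1 had 361 CPM in Tcf4 cKO and 388 CPM in WT, and just outside 189 and 181 CPM. Gad2 had 309 and 378 CPM just inside, and 219 and 227 CPM just outside. Of all cells with at least 2 Lhx8 UMIs, 858 in Tcf4 cKO and 437 in WT, the limit on Neurod2 removed 55 and 18 and the limit on dividing-cell genes a further 67 and 39. Among cells with 2 or more Neurod2 UMIs, 1.40% of 3930 in Tcf4 cKO and 0.761% of 2366 in WT had 2 or more Lhx8 UMIs. Among microglia, picked by their marker genes, 3 of 45 in Tcf4 cKO (6.67%) and 0 of 51 in WT did. Free RNA held 53.6 and 33.4 CPM of Lhx8. The part of free RNA in the membership was not tested. A doublet caller marked 15 members in Tcf4 cKO and 9 in WT, and these were kept.

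Members were a larger share of the cells in the Tcf4 cKO library. They made up 6.90% of Tcf4 cKO cells (6.43 to 7.40, Clopper-Pearson) and 4.24% of WT cells (3.83 to 4.68). As a share of neurons the values were 13.3% and 8.71%. With every cell thinned to that UMI minimum before the rule was applied they were 4.51% and 2.90%, so the order held at equal depth. Only 1 library stands behind each share, and a genotype difference cannot be told apart from a difference in the tissue taken.

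Members were first compared with all other neurons, 4783 cells in Tcf4 cKO and 3984 in WT. Those were cells with at least 10 UMIs over 6 pan-neuronal genes, more UMIs of these than of 9 glial genes, at most 1 Eomes UMI and the same limit on dividing-cell genes, a definition made here. Of the members, 688 in Tcf4 cKO and 359 in WT met it too. Of 15487 genes with at least 20 UMIs, 77 (0.497%) were at least 2-fold higher in members in both libraries and 177 (1.14%) at least 2-fold lower, on log2(CPM + 5). Since Lhx8 and Neurod2 counts chose the cells, all of these values describe the group and test nothing.

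Among the genes higher in members were 3 regulators of the medial ganglionic eminence. Nkx2-1 (chr12:56531958-56536908) had 412 CPM in Tcf4 cKO and 303 CPM in WT members, against 18.6 and 13.2 CPM in other neurons. Lhx6 (chr2:36081953-36105408) had 242 and 262 CPM in members, against 17.4 and 8.44 CPM. Sox6, which acts after Lhx6 in mouse interneurons, had 124 and 87.0 CPM, against 17.0 and 15.1 CPM. Members thus carried the transcripts of the 3 factors of that lineage in both libraries, and in each case both member values lay above both values of other neurons. Of the 10 listed factors of the medial ganglionic eminence 4 were higher, among them Nkx2-1, Lhx6 and Sox6, and 1, Zeb2, was lower, with medians of 0.18 in Tcf4 cKO and 0.12 in WT on the log2 scale beside 0.01 and -0.02 over all genes tested.

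**Figure D1:**
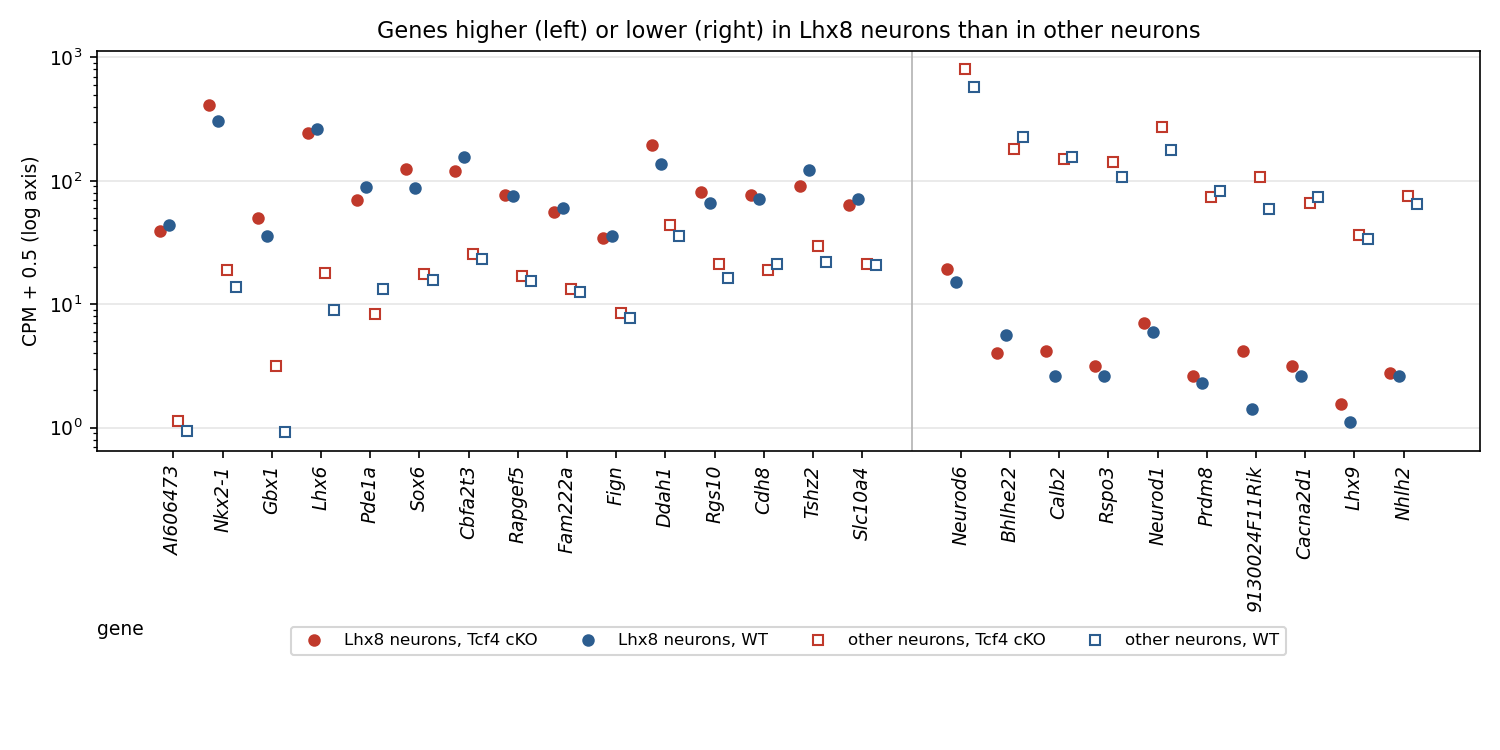
Levels in CPM + 0.5 on a log axis for the 15 genes highest and the 10 lowest in Lhx8 neurons relative to other neurons. Each point is 1 library, filled for Lhx8 neurons and open for other neurons, and for every gene both filled points lie on the same side of both open points.

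Outside that lineage the genes with the highest ratios were of several kinds. AI606473 had 39.1 CPM in Tcf4 cKO and 43.5 CPM in WT members, against 0.631 and 0.439 CPM in other neurons. Pde1a had 70.1 and 88.5 CPM in members, against 7.87 and 12.8 CPM. Gbx1 had 49.4 and 35.1 CPM in members, against 2.69 and 0.415 CPM. AI606473 and Gbx1 were close to absent from other neurons, whereas Pde1a had a UMI in 4.37% of them in Tcf4 cKO and 6.20% in WT. Ddah1, which breaks down an inhibitor of nitric oxide synthesis, had 195 and 136 CPM, against 43.4 and 35.5 CPM, and the corepressor Cbfa2t3 had 120 and 156 CPM, against 24.9 and 22.6 CPM. The cadherin Cdh8, the zinc-finger gene Tshz2, the Rap exchange factor Rapgef5, the microtubule-severing gene Fign, Fam222a and Rgs10 were 3.09- to 5.67-fold higher across the libraries.

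Set against GABAergic other neurons only, which had at least 2 UMIs of Gad1 and Gad2 together and at most 1 of Neurod2, the counts were 50 higher and 66 lower. There 10 of the 15 named higher genes kept the 2-fold limit, and Fam222a, Fign, Rgs10, Tshz2 and Slc10a4 did not. Slc10a4 had 62.7 CPM in Tcf4 cKO and 71.0 CPM in WT members, against 20.6 and 20.3 CPM in all other neurons and 48.8 and 42.2 CPM in the GABAergic ones. Of the 4 genes that mark the group, Slc10a4 separated it least from these GABAergic other neurons.

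Genes of pallial glutamatergic neurons were among those lower in members. Of the 11 listed pallial genes tested, 10 were lower and none higher, with medians of -3.32 in Tcf4 cKO and -3.22 in WT. Neurod6 had 18.8 and 14.5 CPM in members, against 807 and 575 CPM in other neurons. Bhlhe22 had 3.50 and 5.14 CPM, against 182 and 228 CPM. The limit on Neurod2 removed such cells from the members by design, and against GABAergic other neurons 1 of the 10 named lower genes, Calb2, kept the 2-fold limit. Calb2, the calcium-binding protein calretinin, had 3.68 CPM in Tcf4 cKO and 2.12 CPM in WT members, against 149 and 157 CPM in other neurons. Of 18 striatal projection genes 5 were lower, with medians of -0.35 and -0.24. The vesicular glutamate transporters Slc17a6 and Slc17a7 were lower as well, and Slc17a6 had a UMI in 1.36% and 0.789% of members, against 29.5% and 48.8% of Neurod2 neurons.

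Most members carried GABAergic transcripts. Gad2, which makes GABA, had a UMI in 85.6% of Tcf4 cKO and 88.7% of WT members, and in 65.8% and 68.4% after thinning to the UMI minimum, against 3.71% and 2.81% of thinned Neurod2 neurons. Its level was 356 CPM in Tcf4 cKO and 401 CPM in WT members, against 140 and 169 CPM in all other neurons and 387 and 396 CPM in the GABAergic ones. Of the 11 GABAergic genes listed, 2 were 2-fold higher than in other neurons in both libraries, Gad2 among them, and none was lower. None of the 11 passed 2-fold in either direction against Lhx6 interneurons.

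**Figure D2:**
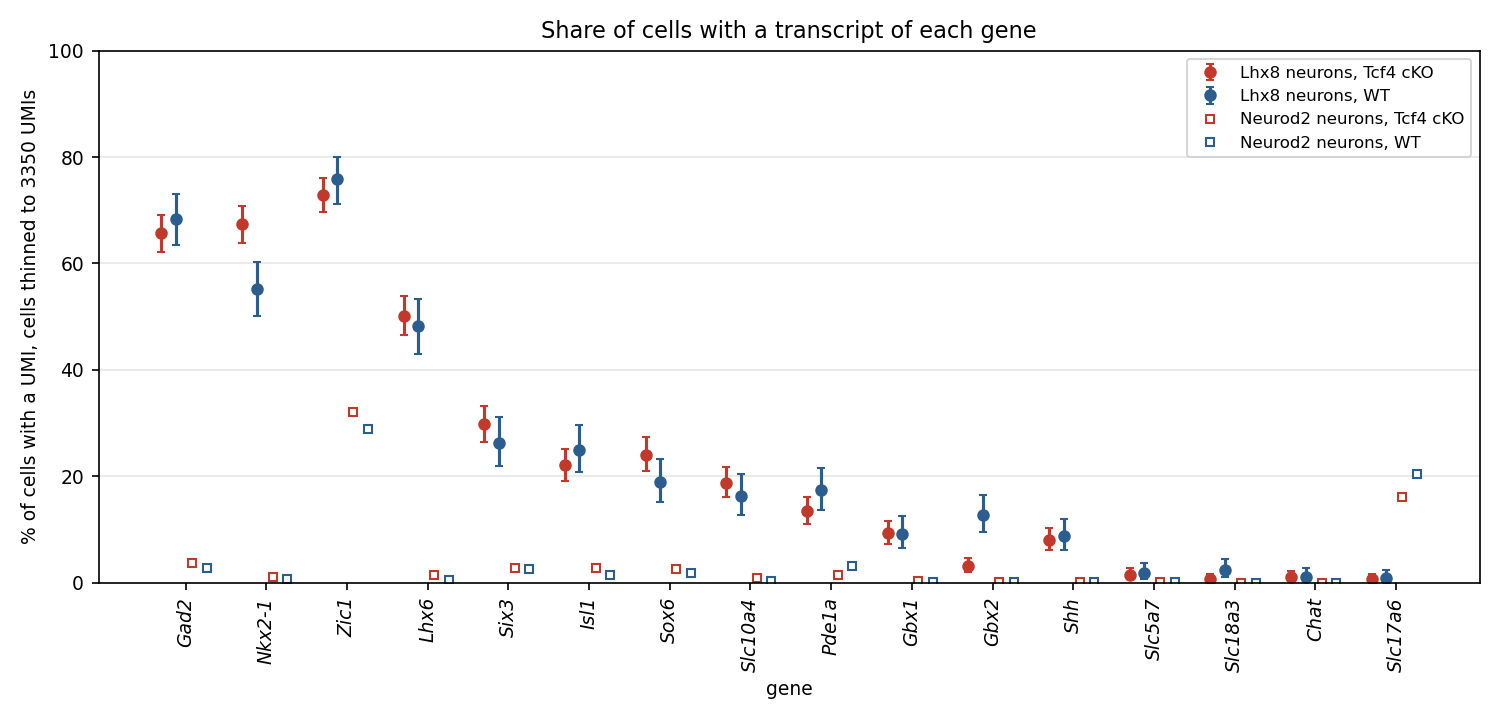
Percent of cells with at least 1 UMI of each gene after every cell was thinned to the UMI minimum. Filled points are Lhx8 neurons with exact binomial 95% intervals and open squares are Neurod2 neurons. The part of free RNA in these shares was not tested. Gad2, Zic1 and Nkx2-1 were each seen in at least 55.3% of the Lhx8 neurons, while Chat, Slc18a3 and Slc5a7 were at 2.37% or less.

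Cholinergic transcripts were present but scarce at this age. Chat had a UMI in 1.49% of Tcf4 cKO and 2.11% of WT members, Slc18a3 in 1.77% and 3.95%, and Slc5a7 in 2.99% and 4.74%. Slc18a3 lies inside Chat on the same strand, so reads of the pair may be split between them. At least 1 of the 3 was seen in 32 of 736 Tcf4 cKO members (4.35%) and 33 of 380 WT members (8.68%), against 31 of 4783 and 27 of 3984 other neurons and none of the Lhx6 interneurons. Of those members 20 in Tcf4 cKO and 29 in WT also had an Isl1 UMI, and 19 and 24 an Lhx6 UMI. Of the 11 listed cholinergic genes, Slc10a4, Gbx1, Gbx2 and Pde1a were 2-fold higher in members in both libraries, with medians of 0.73 in Tcf4 cKO and 1.08 in WT. Slc10a4, Gbx1 and Pde1a are markers in the group's label and count in these medians, so their passing describes the group and tests nothing. Chat, Slc18a3 and Slc5a7 had at most 6.95 CPM in members and did not pass on the scale with 5 CPM added.

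Members were next set against Lhx6 interneurons, defined here as cells with at least 2 Lhx6 UMIs, none of Lhx8, and the same limits on Neurod2 and dividing-cell genes, 106 in Tcf4 cKO and 60 in WT. Of 11744 genes, 94 (0.8%) were at least 2-fold higher in members in both libraries and 146 (1.24%) at least 2-fold lower. Isl1 (chr13:116298281-116309689) had 130 CPM in Tcf4 cKO and 137 CPM in WT members, against 12.6 and 8.56 CPM in Lhx6 interneurons. Nkx2-1 had 412 and 303 CPM, against 85.7 and 47.1 CPM, and Slc10a4 had 62.7 and 71.0 CPM, against 10.1 and 6.42 CPM. The growth factor gene Kitl, the ligand of Kit, had 239 and 204 CPM, against 60.5 and 32.1 CPM. These values were at least 3-fold apart in both libraries. Gbx1 had 49.4 CPM in Tcf4 cKO and 35.1 CPM in WT members, against 26.5 and 4.28 CPM in Lhx6 interneurons. It was thus 1.87-fold higher in Tcf4 cKO and 8.19-fold higher in WT, the latter on 2 UMIs in Lhx6 interneurons. In GABAergic other neurons Isl1 had 235 CPM in Tcf4 cKO and 203 CPM in WT, and Kitl 262 and 274 CPM, above the members.

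Genes of the septum and preoptic area split in the same comparison. Zic1, a zinc-finger factor of the dorsal midline and septum, had 869 CPM in Tcf4 cKO and 828 CPM in WT members, against 99.6 and 186 CPM in Lhx6 interneurons. Of the 12 septal and preoptic genes tested, 7 were higher, among them Zic1, Zic4, Six3 and Vstm2l, and Nr2f1 and Nr2f2 were lower, with medians of 1.63 and 1.31 beside 0.00 and -0.02 over all genes. Zic1 and Zic4 overlap on opposite strands, and the sources used here do not state whether counting used strand. Against all other neurons none of the 14 genes of that list was 2-fold higher in both libraries, and Zic1 had 1197 and 1199 CPM in GABAergic other neurons. The higher Zic levels were thus measured against Lhx6 interneurons and not against the other GABAergic neurons of the dissected tissue.

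**Figure D3:**
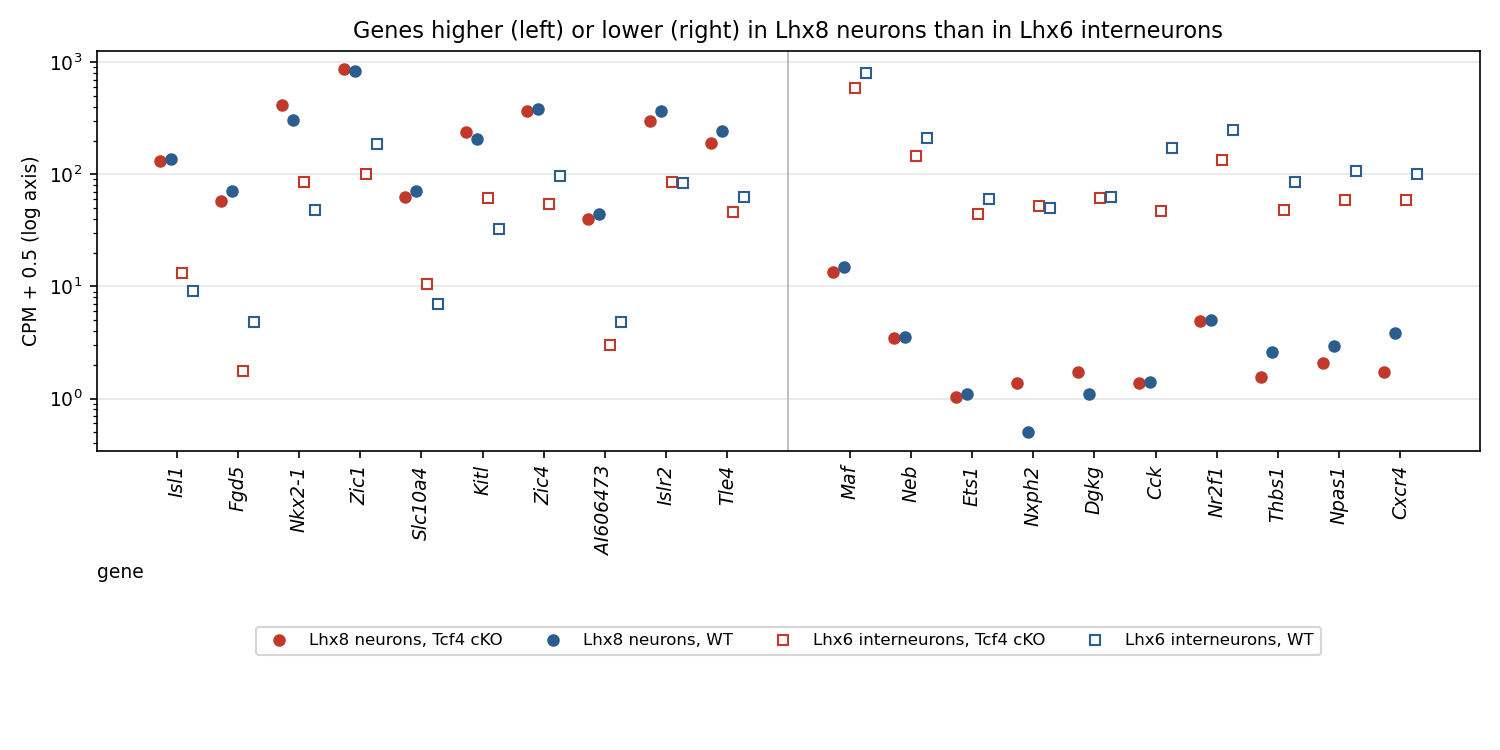
Levels in CPM + 0.5 on a log axis for the 10 genes highest and the 10 lowest in Lhx8 neurons relative to Lhx6 interneurons, 1 point per library. Isl1, Nkx2-1, Zic1 and Slc10a4 are higher in Lhx8 neurons, and Maf, Nr2f1, Cck and Cxcr4 are lower, in both libraries.

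Genes of migrating cortical interneurons were lower in members than in Lhx6 interneurons. Maf, a factor of cortical interneurons, had 13.0 CPM in Tcf4 cKO and 14.5 CPM in WT members, against 589 and 802 CPM in Lhx6 interneurons. Cxcr4, the chemokine receptor that keeps interneurons in their migratory streams, had 1.23 and 3.32 CPM, against 58.0 and 101 CPM. The orphan nuclear receptor Nr2f1 had 4.38 and 4.53 CPM, against 135 and 250 CPM. Of the 13 listed genes of interneuron migration and subtype, 8 were at least 2-fold lower (Erbb4, Cxcr4, Ackr3, Epha5, Nxph1, Calb1, Sst and Npy) and only Robo1 was higher, with medians of -2.12 in Tcf4 cKO and -2.28 in WT. Of the 8 factors of the medial ganglionic eminence tested here, 4 were lower, among them Satb1, Maf and Zeb2, and Nkx2-1 was higher. Against all other neurons, none of the 13 genes of interneuron migration and subtype passed 2-fold in both libraries. Their medians there were -0.003 in Tcf4 cKO and -0.30 in WT.

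Members were not of 1 kind. Lhx6 had at least 1 UMI in 477 Tcf4 cKO and 255 WT members, and none in 259 and 125. Between these groups 64 of 11455 genes (0.559%) were at least 2-fold higher with Lhx6 in both libraries and 58 (0.506%) at least 2-fold lower. The neuropeptide gene Nts had 62.4 CPM with Lhx6 and 2.92 CPM without in Tcf4 cKO, and 92.5 and 2.69 CPM in WT. Its counts came from 15 Tcf4 cKO and 19 WT members, with 29.9% and 27.2% of them in 1 cell, and free RNA held 13.8 and 69.6 CPM. Six3, a factor of the ventral forebrain midline, ran the other way, with 85.4 CPM with Lhx6 and 366 CPM without in Tcf4 cKO, and 93.9 and 329 CPM in WT. It overlaps Six3os1, another of the lower genes, on the opposite strand. The other named genes higher with Lhx6 were Adarb2, Epha5, Lypd6, Gm17750 and Runx1t1, and the other lower ones were Prdm16, Otx2, Sp8 and Pnoc.

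The same division showed in single thinned cells. Gbx1 was seen in 15.2% of Tcf4 cKO members with Lhx6 and 3.27% of those without, and in 14.8% and 4.06% in WT. Isl1 was seen in 12.2% with Lhx6 and 31.9% without in Tcf4 cKO, and in 16.4% and 33.0% in WT. Gbx1 and Isl1 rarely met, since Gbx1 was seen in 1.23% of Tcf4 cKO members with Isl1 and 11.5% of those without, and in 1.05% and 11.9% in WT. Shh, the secreted morphogen made by part of the medial ganglionic eminence, was seen in 11.7% with Lhx6 and 4.36% without in Tcf4 cKO, and in 12.02% and 5.58% in WT. Gad2 differed little, with 67.2% against 64.3% in Tcf4 cKO and 71.0% against 66.0% in WT. Slc10a4 went with Isl1, in 25.9% of Tcf4 cKO members with Isl1 and 16.7% of those without, and in 31.6% and 11.2% in WT.

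Grouping the members by their variable genes gave 9 clusters, here called by their leading genes. Genes past 1.5-fold between the libraries were left out of the grouping, so that cluster sizes could be set side by side. A cluster led by Rgma and Adarb2 held 82 Tcf4 cKO members (11.1%) and 98 WT members (25.8%), and was rich in Lhx6 (569 CPM in Tcf4 cKO and 542 CPM in WT) and Gbx1 (102 and 96.8 CPM). A cluster led by Nefm and Kctd12 held 82 Tcf4 cKO members (11.1%) and 6 WT members (1.58%) and had the highest Gbx1, 218 and 167 CPM. With 1 library per genotype, a cluster that comes mostly from 1 library may be that library and not a cell type. The cluster led by Cdh13 and Rbms1, with 41 Tcf4 cKO (5.57%) and 32 WT members (8.42%), had the highest Slc10a4 (168 and 342 CPM) and Isl1 (241 and 407 CPM), and held most of the Chat counts, at 49.1 and 19.4 CPM.

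A further 5 clusters were led by Ccnd2 and Cdk6 (18.3% of Tcf4 cKO and 12.9% of WT members), Pcdh11x and Prdm16 (18.1% and 13.4%), Peg10 and Zfhx3 (12.2% and 15.3%), Erbb4 and Etv1 (12.5% and 7.11%), and Kitl and Nfia (9.38% and 12.9%). A last cluster of 12 Tcf4 cKO and 10 WT members was led by Fabp7, Apoe and Slc1a3, genes of astroglia. Its cells had median depths of 13886 and 15481.5 UMIs, none met the neuron rule, and 7 and 6 of them were called doublets, so the name Lhx8 neurons does not hold for it.

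**Figure D4:**
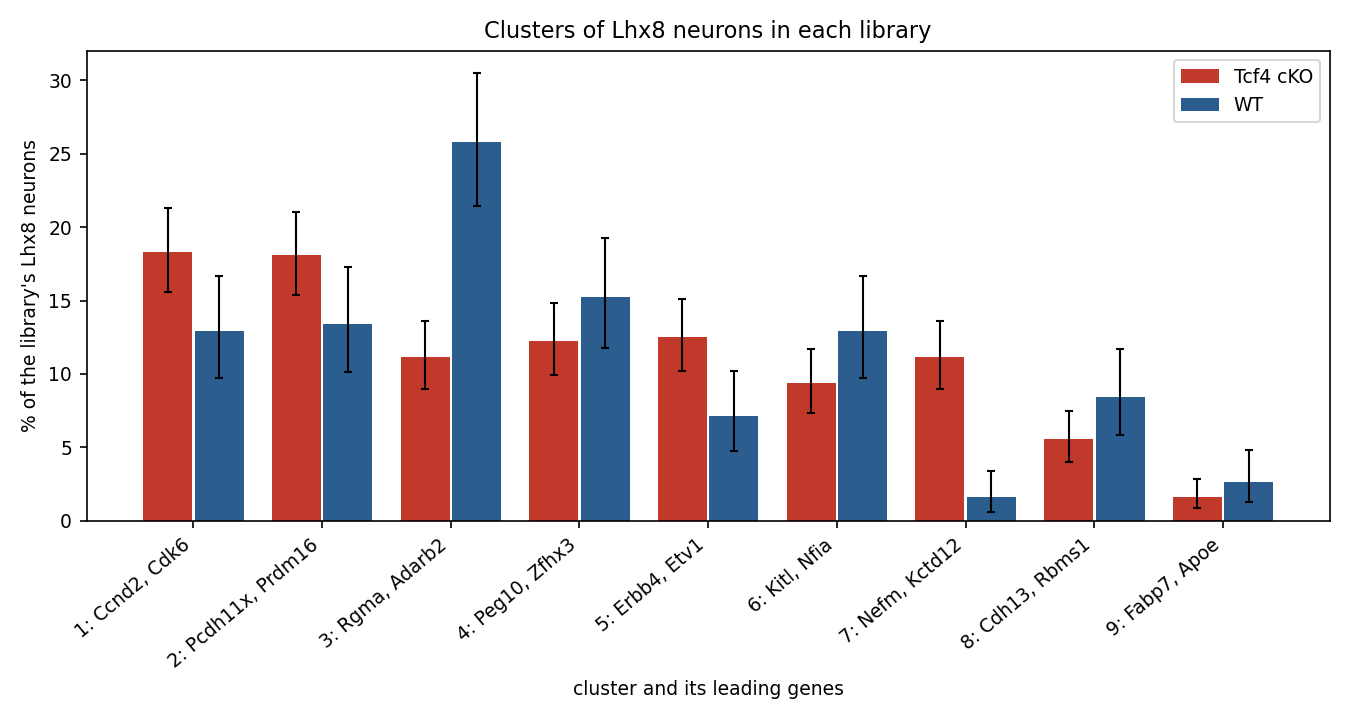
Share of the Lhx8 neurons of each library in each of 9 clusters, with exact binomial 95% intervals that cover counting error only. The largest gaps are in the cluster led by Rgma and Adarb2, 11.1% in Tcf4 cKO and 25.8% in WT, and in that led by Nefm and Kctd12, 11.1% and 1.58%.

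The targeted gene was checked first in the comparison of genotypes. Tcf4 (chr18:69343356-69689079) had 582 CPM in Tcf4 cKO members and 428 CPM in WT members, a ratio of 1.36 (1.28 to 1.45). In all other neurons it had 1215 CPM in Tcf4 cKO and 1608 CPM in WT, a ratio of 0.756 (0.747 to 0.764), and in Neurod2 neurons 1757 and 2646 CPM, a ratio of 0.664 (0.656 to 0.673). Members thus had less Tcf4 than other neurons in both libraries and went the opposite way between genotypes, by a log2 difference of 0.85 (0.76 to 0.94). Reads at the 3′ end check nothing if the deleted exon lies elsewhere, and free RNA, which held 711 CPM in Tcf4 cKO and 977 CPM in WT, moved in the direction of the other neurons.

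Tcf4 varied more among the clusters than between the libraries. It had 1355 CPM in Tcf4 cKO and 877 CPM in WT in the cluster led by Erbb4 and Etv1, and 121 and 139 CPM in that led by Pcdh11x and Prdm16. Of the 8 clusters with at least 10 cells in both libraries, 6 had the higher level in Tcf4 cKO and 2 of them were past 1.5-fold. Here and below, these 8 leave out the cluster led by Nefm and Kctd12, with 6 WT members. They include the astroglial cluster led by Fabp7 and Apoe, to which the name Lhx8 neurons does not apply. Lhx6 interneurons had 1972 CPM in Tcf4 cKO and 2456 CPM in WT. Among the 7 listed E proteins and Id genes, none passed 1.5-fold between genotypes in members, and the partner genes Tcf3 and Tcf12 had ratios of 1.11 (0.925 to 1.34) and 1.07 (0.952 to 1.20).

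Between genotypes 218 of 11456 genes (1.9%) were at least 1.5-fold higher in Tcf4 cKO members and 93 (0.812%) at least 1.5-fold lower. Without the cluster led by Nefm and Kctd12 the counts were 133 and 113, an alternative chosen after seeing the data. The median log2 ratio over all genes was 0.03. Of the 12 genes named as higher, all kept the direction without that cluster and 5 kept 1.5-fold, while Nwd2, Chchd10, Kctd12, Vstm2a, Nefm, Tmem158 and Nefl did not. Of the 12 named as lower, 9 were past 1.5-fold, and Zbtb20, Mir99ahg and Rnf121 were just short of it.

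Colec12, a scavenger receptor of the collectin family (chr18:9707595-9882644), had 573 UMIs in Tcf4 cKO members and none in WT members. Its level was 111-fold higher against a floor of 3 counts over the WT members, and 89.8-fold higher at the lower bound of the exact interval. It was past 1.5-fold in all 8 clusters compared, and other neurons showed the same contrast, with 100 CPM in Tcf4 cKO and 0.488 CPM in WT. Serpine2, a secreted protease inhibitor, had 56.4 CPM in Tcf4 cKO and 19.9 CPM in WT members, a ratio of 2.83 (2.17 to 3.75), and was higher in all 8 clusters. These differences were not tied to 1 cluster of members. Gnrh1, the gene of gonadotropin-releasing hormone, had 938 UMIs in Tcf4 cKO and 4 in WT members, but 99.3% of the Tcf4 cKO counts lay in 1 cell, without which the log2 ratio was 0.08.

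Several of the other higher genes were strongest in the cluster led by Nefm and Kctd12. Syt4, a synaptotagmin of dense-core vesicles, had 238 CPM in Tcf4 cKO and 74.9 CPM in WT members, a ratio of 3.18 (2.78 to 3.66), with 960 and 397 CPM in the cluster led by Nefm and Kctd12 and the same direction in 5 of 8 clusters. Cadm2, a synaptic adhesion molecule, had 62.7 and 16.3 CPM, a ratio of 3.84 (2.88 to 5.22), in the same direction in 7 of 8 clusters. The medium neurofilament gene Nefm had 175 and 74.6 CPM, a ratio of 2.35 (2.04 to 2.71), and the light one, Nefl, had 84.3 and 39.0 CPM. The pair overlaps on opposite strands. Of the 999 Nefm counts in Tcf4 cKO members, 750 lay in the cluster led by Nefm and Kctd12. Within that cluster, of 82 Tcf4 cKO and 6 WT members, Nefm had 856 CPM in Tcf4 cKO and 1499 CPM in WT, and Nefl 352 and 436 CPM. Both were higher in WT, but on 117 and 34 WT counts from those 6 members. Of the 19 tested genes of the neuronal maturation list 3 were higher (Nefl, Nefm and Nrgn) and none was lower, with a median of 0.22. Nrgn too lay in that cluster, with 156 CPM in Tcf4 cKO and 167 CPM in WT there and 2.85 CPM in all other members.

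The lower genes held 3 homeodomain factors. Gbx2, a homeodomain factor (chr1:89927956-89931179), had 14.0 CPM in Tcf4 cKO and 52.6 CPM in WT members, 3.75-fold lower in Tcf4 cKO, and was seen in 4.48% and 17.4% of members. In the cluster led by Cdh13 and Rbms1 it had 20.7 and 194 CPM, and in that led by Peg10 and Zfhx3 60.5 and 62.0 CPM, so the difference was uneven across clusters. Pbx3, a homeodomain cofactor, had 47.5 and 145 CPM, 3.05-fold lower, in the same direction in 7 of 8 clusters. Gbx2 and Pbx3 were both among the leading genes of the cluster led by Rgma and Adarb2, which held 11.1% of Tcf4 cKO and 25.8% of WT members, and there Pbx3 had 150 and 261 CPM. The POU factor Pou3f1 had 108 and 202 CPM, 1.86-fold lower. Gbx1, the paralog of Gbx2, had 49.4 CPM in Tcf4 cKO and 35.1 CPM in WT, a ratio of 1.41 (1.13 to 1.77), which did not pass 1.5-fold. Of its 282 counts in Tcf4 cKO members, 191 lay in the cluster led by Nefm and Kctd12, against 13 of 116 in WT. That cluster held 82 Tcf4 cKO and 6 WT members, so the Gbx1 ratio follows its size as well.

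Among the other lower genes, Crabp1 was seen in few cells and Rgma in many. Crabp1, which binds retinoic acid, had 14.9 CPM in Tcf4 cKO and 150 CPM in WT members, 10.1-fold lower, but came from 9 and 36 members. Its counts lay mainly in the cluster led by Rgma and Adarb2, with 76.0 CPM in Tcf4 cKO and 510 CPM in WT. Rgma, a repulsive guidance molecule and a leading gene of that cluster, had 54.5 and 131 CPM, 2.40-fold lower, in the same direction in all 8 clusters, with UMIs in 193 and 180 members. The guidance receptors listed did not follow it as a group, since Epha7 was higher and Unc5c and Robo3 were lower among 22 tested, with a median of -0.10.

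Most fixed lists moved little between genotypes in members. Of 9 cholinergic genes tested only Gbx2 passed, with a list median of -0.15. Of 11 GABAergic genes, Slc32a1, the vesicular GABA transporter, was higher, at 118 CPM in Tcf4 cKO and 74.3 CPM in WT, and of 9 medial ganglionic factors Satb1 was higher, with list medians of 0.15 and 0.11. None of 11 septal and preoptic genes, 11 pallial genes or 6 neurotrophin genes passed, with medians of -0.07, -0.01 and -0.02. Penk alone passed among 10 pallidal genes and Cacna2d3 alone, lower, among 19 ion channel genes, with medians of 0.12 and 0.04. Ebf1 and Tac1 were lower among 11 striatal genes, with a median of -0.08, and Sst was higher among 12 interneuron genes, with a median of 0.19.

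Neuropeptide genes were scarce. Sst, the somatostatin gene, had 42.9 CPM in Tcf4 cKO and 2.72 CPM in WT members, a ratio of 15.8 (8.18 to 34.9), with UMIs in 3.26% and 0.789% of members, and free RNA held 51.5 and 23.1 CPM. In the cluster led by Nefm and Kctd12 it had 183 and 89.7 CPM, from 160 counts in Tcf4 cKO and 7 in WT. Of the 6 neuropeptide genes tested Penk and Sst were higher and Tac1 was lower, with a median of -0.05. All Penk counts, 25 in Tcf4 cKO and 1 in WT, lay in that cluster. Tac1 had 85 of its 88 WT counts in 1 cell.

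Whether a genotype difference was larger or smaller in members than in other neurons was described by the difference of the log2 ratios. Of 15487 genes, 308 (1.99%) were at least 1.5-fold higher and 152 (0.981%) at least 1.5-fold lower in members relative to other neurons. Cadm2 had 62.7 CPM in Tcf4 cKO and 16.3 CPM in WT members, against 35.1 and 65.6 CPM in other neurons. Syt4 had 238 and 74.9 CPM in members, against 92.4 and 121 CPM in other neurons. The membrane protein gene Tmem178 had 48.7 and 22.7 CPM in members, against 28.9 and 48.1 CPM. These 3 were higher in Tcf4 cKO than in WT among members and lower among all other neurons. In GABAergic other neurons the ratios were 0.879 (0.765 to 1.01) for Cadm2, 1.36 (1.26 to 1.47) for Syt4 and 1.45 (1.22 to 1.73) for Tmem178, so Syt4 and Tmem178 went the same way there as in members. In Neurod2 neurons they were 0.401, 0.485 and 0.437. Against the GABAergic neurons Tmem178 did not pass 1.5-fold.

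In the opposite sense, Pou3f1 had 108 CPM in Tcf4 cKO and 202 CPM in WT members, against 124 and 104 CPM in other neurons. St6galnac5, a sialyltransferase gene, had 27.3 and 39.9 CPM in members, against 69.0 and 32.6 CPM. Carmil1, a regulator of actin capping, had 26.3 and 40.5 CPM in members, against 21.3 and 11.9 CPM. In GABAergic other neurons the ratios of the 3 were 0.988, 1.11 and 1.03, and Carmil1 did not pass 1.5-fold against them. Rgma and Pbx3 were also among the 8 named lower genes, as were Gbx1 and Gbx2, which had at most 2.69 CPM in other neurons. Of these Gbx1 did not pass 1.5-fold with 5 CPM added. Nts was lower in both classes, with a ratio of 0.659 in members and 0.169 in other neurons. In GABAergic other neurons its ratio was 5.29 (3.52 to 8.21), and the difference turned to -1.64 on the log2 scale.

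**Figure D5:**
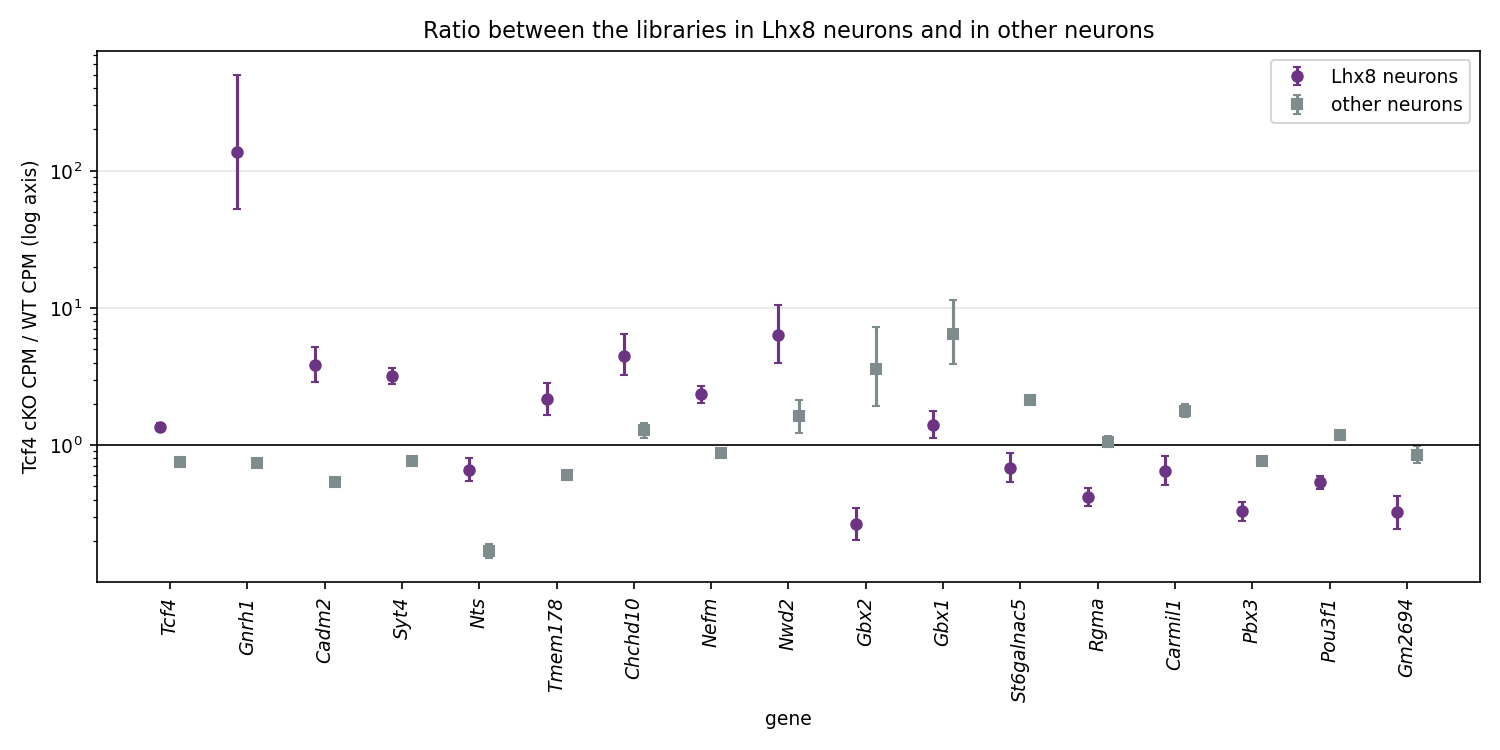
Ratio of the level in Tcf4 cKO to that in WT on a log axis, for Tcf4 and the 16 genes whose ratios differ most between Lhx8 neurons (circles) and other neurons (squares), with exact 95% intervals for counting error. Tcf4, Cadm2, Syt4, Tmem178 and Nefm lie above 1 in Lhx8 neurons and below 1 in all other neurons (Syt4, Tmem178 and Nefm above 1 in the GABAergic ones), and the Gnrh1 value rests on 1 cell.

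Transcripts of other cell types were measured beside these results. The 9 genes of the astroglial list had 629 CPM in Tcf4 cKO and 831 CPM in WT members, against 591 and 550 CPM in other neurons, and 3086 and 2886 CPM in free RNA. The haemoglobin genes that made up the red cell list had 1064 CPM in Tcf4 cKO and 9131 CPM in WT members, with 86.0% and 78.1% of these counts in 3 members. Leaving out members with transcripts of other cell types kept all 12 named higher genes past 1.5-fold, and Tcf4 had a log2 ratio of 0.48 there, against 0.44 with all members.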

How the data were processed

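As deposited, each matrix is a table of whole-number UMI counts for every barcode, empty droplets included, that the authors had not normalized. Cell Ranger 7.1.0 wrote them per the file headers, whereas version 2.1.1 of that tool and the build mm10 are given per the submitters' processing notes. Libraries were made with a 10x Genomics kit that reads 3′ ends, per the labels' protocols. The authors' cell calls and annotation release were not used here.

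Members and gene lists were chosen with earlier results of these data known. Counts were summed per class and library and scaled to CPM. A gene needed 20 UMIs, 5 CPM were added before taking log2, and the limits were 2-fold in both libraries between classes and 1.5-fold between libraries. These are limits of size, not tests. Poisson, binomial (Clopper-Pearson) and conditional binomial 95% intervals, and a Wald interval with 0.5 added for differences of log2 ratios, cover counting error only. On simulated counts the calls were tested before use. Named genes needed 50 UMIs, 30 CPM and, where higher in members, at least the level of free RNA (droplets with 10 to 100 UMIs), and were ranked by the interval bound nearest to 1. Scrublet in scanpy 1.11.5 marked doublets at an expected 6%, which were kept. Clusters came from 1340 of 1500 variable genes, 20 principal components, 15 neighbours and Leiden (leidenalg 0.10.2) at resolution 0.6. TMM factors came from edgeR 4.0.16. Alternatives were other UMI, mitochondrial and Lhx8 limits, thinning, doublet removal, other neuron rules, pseudocounts and count minimums, TMM scaling and means over cells. GENCODE vM21 supplied positions for 32235 of 32285 gene identifiers. Some members of the gene lists are counted with their lists and not reported here by name.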

Additional observations from a re-analysis of the deposited data

Results flagged for a closer look

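The 10 genes here come from those named above for unlike ratios in members and other neurons, and were not counted over all genes tested. In each, the Tcf4 cKO and WT levels differed in one direction in Lhx8 neurons and in the opposite direction in all other neurons together. With 1 library per genotype the difference was not tested. The values are differences of log2 ratios, members minus other neurons. Those above 0 were Cadm2 with 2.83, Syt4 with 2.05, Tmem178 with 1.83, Nefm with 1.41 and Tcf4 with 0.85. Gnrh1 had 7.35, from 1 cell. Those below 0 were Gbx2 with -3.71, St6galnac5 with -1.63, Carmil1 with -1.46 and Pou3f1 with -1.15. In GABAergic other neurons the Tcf4 cKO to WT ratios of Syt4 (1.36), Tmem178 (1.45), Nefm (1.10), Gnrh1 (1.12) and Pou3f1 (0.988) had the same direction as in members, and those of Cadm2 (0.879), Tcf4 (0.820), Gbx2 (3.10), St6galnac5 (1.11) and Carmil1 (1.03) the opposite one. The intervals there include 1 for Pou3f1 (0.894 to 1.09), Cadm2 (0.765 to 1.01), St6galnac5 (0.989 to 1.25) and Carmil1 (0.822 to 1.28). Counting error alone thus leaves the direction of those genes in GABAergic other neurons unresolved. Gbx2 had few counts in other neurons, at 1.14 CPM in Tcf4 cKO and 0.317 CPM in WT.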

How the results depend on the processing

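No paired analysis was possible because each genotype has 1 library. Over 12 summary results and 140 alternative values, 109 stayed close, 31 moved and none reversed. The share of members was 2.66 points higher in Tcf4 cKO, 1.57 with 6700 UMIs per cell, 1.98 with 3 Lhx8 UMIs, 3.48 with 1, 1.61 after thinning and 4.63 as a share of neurons. The log2 ratio of Tcf4 was 0.44, and 0.21 with 6700 UMIs, 0.33 with 1 Lhx8 UMI and 0.58 as a mean over cells. Genes higher in Tcf4 cKO members (218) were 356 with 6700 UMIs, 622 with 1 CPM added, 37 with 20 CPM added and 133 without the cluster led by Nefm and Kctd12. Those lower (93) were 149 after thinning, 314 and 18 with 1 and 20 CPM, and 150 with clusters weighted equally. The alternatives that leave out or weight clusters were chosen after seeing the data. Against other neurons, 77 higher became 50 with GABAergic neurons only, 175 with 1 CPM and 29 with 20 CPM, and 177 lower became 66, 355 and 70. Against Lhx6 interneurons, 94 and 146 became 310 and 227 with 1 CPM. Relative to other neurons, 308 became 1460 with 1 CPM, and 152 became 776, 274 after thinning and 242 with equal weights. In the Lhx6 division 64 became 137 with 1 CPM, and 58 became 141, or 100 with 2 Lhx6 UMIs. Of 479 values for list medians 413 stayed close and none reversed, and of 1277 for named genes 1095 stayed close and 7 reversed or came to 0. Gnrh1 reversed to -0.047 after thinning, and against GABAergic neurons Neurod6 (0.35), Bhlhe22 (0.12), Neurod1 (0.16) and Nts relative to them (-1.64) did, while Rspo3 and 9130024F11Rik came to 0.0 because their libraries differed in direction. The cause was not tested, except that the GABAergic set excludes cells with 2 or more Neurod2 UMIs by construction.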
